A study of Mus musculus with 20 samples.

Results

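Fatty acid uptake, binding and oxidation was followed through 10 genes of mouse microglia, the resident macrophages of the brain: Lpl, Fabp3, Fabp5, Cd36, Acsl1, Cpt1a, Cpt2, Acadl, Acadm and Hadha. Each of the 10 was found among the 21315 gene symbols with values. RNA was sequenced in 20 libraries from mice aged 9 months, in 6 groups defined by genotype and by how the microglia were sorted. Cells were isolated from papain-digested brain as CD45mid CD11b-positive microglia. In 6 libraries, 3 WT and 3 APP-KI, the cells were further selected as C3aR-positive through Td-tomato, a red fluorescent protein placed in the C3ar1 locus, and both of these groups carry that reporter allele. The other 14 libraries held microglia that were not selected on C3aR, from 3 WT, 3 APP-KI, 3 C3aR-KO and 5 APP-KI; C3aR-KO samples. The App gene of APP-KI mice is expressed from its own promoter, encodes human Aβ and bears the Swedish, Iberian and Arctic mutations. These mice develop Aβ plaques. C3aR-KO mice lack the receptor for complement fragment C3a in every cell and from birth. The labels do not state that every library came from a separate mouse, so p-values measure the spread between these samples.

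Fatty acids reach microglia partly through lipoprotein lipase, the product of Lpl, which releases them from triglycerides, and through the scavenger receptor CD36 at the plasma membrane. Inside the cell they are carried by fatty acid binding proteins (Fabp3, Fabp5) and joined to coenzyme A by acyl-CoA synthetases (Acsl1). Carnitine palmitoyltransferases (Cpt1a, Cpt2) bring the acyl chains into mitochondria, where acyl-CoA dehydrogenases (Acadl, Acadm) and the trifunctional protein (Hadha) shorten them by β-oxidation, and Lpl is well known as a marker of microglia that gather at plaques.

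The C3aR-positive libraries held between 13939559 and 30388941 reads in genes, and the other 14 between 42239056 and 76608464. Values are given as scaled values, that is reads per gene divided by the library's 75th percentile and multiplied by a single constant, 35.2, for all libraries, with no correction for gene length. A single read was worth between 0.0132 and 0.0786 on this scale. Of the 14 libraries, 4 had reads in markedly fewer genes: APP-KI replicate 4 in 13250 of the 21326 entries, C3aR-KO replicate 1 in 12702, C3aR-KO replicate 2 in 13055 and APP-KI; C3aR-KO replicate 1 in 12387. APP-KI replicate 5 had reads in 21219 entries, and the remaining 15 libraries in 14888 to 17450. Several results that involve these 5 libraries are also given without them, a choice made after seeing the data.

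C3ar1, the gene targeted in the knockout, was read first as a check of the labels. Its scaled values were 276, 330 and 340 in WT, 165, 315 and 388 in APP-KI, 68.1, 39.9 and 65.7 in C3aR-KO, and 80.4, 77.4, 69.4, 75.9 and 61.9 in APP-KI; C3aR-KO. Every knockout library lay below every library of the unselected WT and APP-KI groups, and a part of the gene's reads remained. C3ar1 fell by 2.39 ± 0.27 (SE) on the log2(scaled value + 1) scale in C3aR-KO against WT (3 of 3 libraries, limma adjusted p = 0.00339) and fell by 1.95 ± 0.24 in the double mutant against APP-KI (5 of 5, limma adjusted p = 0.00972). In the C3aR-positive sort the values were 71.0, 81.2 and 37.6 in WT and 383, 251 and 201 in APP-KI. The log2 difference there was 2.14 (3 of 3 libraries). The C3aR-positive WT libraries lay below every unselected WT library in C3ar1 (log2 difference -2.37 ± 0.33, 3 of 3 libraries, limma adjusted p = 0.111). They overlapped the knockout in scaled C3ar1 values, and the reporter allele, the sort and the library series cannot be told apart there.

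Microglial markers were present throughout. All 7 (P2ry12, Tmem119, Cx3cr1, Sall1, Csf1r, Aif1, C1qa) had a scaled value of at least 1 in each of the 20 libraries, and their sum ran from 7284 in APP-KI; C3aR-KO replicate 1 to 25726 in WT replicate 5. The 6 neuronal markers summed to 19.8 in APP-KI replicate 5 and to at most 5.42 elsewhere. The 5 T and NK cell markers with values, of 6 listed, summed to 62.6 in APP-KI replicate 5, 50.7 in C3aR-KO replicate 2 and 68.1 in APP-KI; C3aR-KO replicate 1, and to at most 28.4 in the other libraries.

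Lpl, the lipase gene, was low in every library without the App mutations and high in every library with them. In C3aR-positive microglia its scaled values were 35.6, 28.9 and 18.8 in WT and 830, 862 and 1105 in APP-KI. In unselected microglia they were 14.3, 19.5 and 26.7 in WT, 408, 765 and 1043 in APP-KI, 26.3, 4.28 and 20.03 in C3aR-KO, and 396, 831, 841, 934 and 1078 in APP-KI; C3aR-KO. No library of either App-mutant genotype overlapped a WT or C3aR-KO library, and the 2 lowest App-mutant values came from libraries with few genes detected. On the scale log2(scaled value + 1), Lpl was higher in APP-KI than in WT by 5.05 ± 0.21 (SE, 3 of 3 libraries above all 3 WT) in C3aR-positive microglia, with a limma adjusted p of 4.02e-06, and by 5.32 ± 0.45 (3 of 3) in all sorted microglia, adjusted p 6.23e-06.

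Fabp5, which encodes the epidermal-type fatty acid binding protein, moved by a similar size. Its scaled values were 4.98, 2.49 and 2.06 in C3aR-positive WT and 105, 141 and 197 in C3aR-positive APP-KI. Among unselected microglia they were 1.14, 0.727 and 1.14 in WT, 151, 74.6 and 108 in APP-KI, 1.34, 10.2 and 1.30 in C3aR-KO, and 194, 64.0, 106, 139 and 119 in APP-KI; C3aR-KO. The App-mutant libraries again stood entirely above the others, and the highest value without App mutations, 10.2, belonged to C3aR-KO replicate 2. The log2 difference of APP-KI from WT was 5.17 ± 0.32 (SE, 3 of 3 libraries) in C3aR-positive microglia (limma adjusted p = 1.69e-05) and 5.68 ± 0.55 (3 of 3) in all sorted microglia (adjusted p = 1.9e-05).

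Fabp3, the heart-type binding protein, was close to absent without App mutations. Its scaled values were 0.193, 0.0977 and 0.178 in C3aR-positive WT, from 6, 2 and 5 reads, and 11.99, 21.1 and 15.6 in C3aR-positive APP-KI. In unselected microglia they were 0.518, 1.14 and 1.32 in WT, 20.7, 11.4 and 16.8 in APP-KI, 0, 0 and 1.11 in C3aR-KO, and 0, 8.92, 19.9, 16.6 and 21.4 in APP-KI; C3aR-KO. The libraries at 0 (C3aR-KO replicates 1 and 2 and APP-KI; C3aR-KO replicate 1) were 3 of the 4 with few genes detected, and because of the last of them the double mutant overlapped C3aR-KO. Fabp3 was higher in APP-KI than in WT by 3.86 ± 0.43 on the log2 scale in C3aR-positive microglia (3 of 3 libraries, limma adjusted p = 0.000327) and by 3.56 ± 0.77 in all sorted microglia (3 of 3, adjusted p = 0.015). Since values near 0 are held up by the added 1, these differences understate the change. The adjusted p in all sorted microglia passed under 21 of 28 alternatives and lay between 7.34e-06 and 0.185. It was lost without WT replicate 5 (log2 difference 3.40), WT replicate 6 (3.46) or APP-KI replicate 4 (3.17). It was also lost with edgeR (5.16), without the series term (3.10), with a pseudocount of 0.1 (4.83) and with no filter, and without the 4 libraries with few genes the difference was 3.04 and was called.

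Cd36, the uptake receptor, went the other way in the C3aR-positive sort. Its scaled values there were 32.9, 12.2 and 14.02 in WT and 7.86, 6.72 and 4.09 in APP-KI, with no overlap. In unselected microglia they were 12.3, 35.0 and 33.6 in WT, 2.68, 13.3 and 11.5 in APP-KI, 8.31, 11.0 and 12.5 in C3aR-KO, and 0.498, 12.7, 12.8, 17.9 and 12.9 in APP-KI; C3aR-KO. WT replicates 5 and 6 and C3aR-positive WT replicate 1 were the high libraries, the 2 lowest values belonged to libraries with few genes detected, and WT overlapped APP-KI in unselected microglia. Cd36 fell by 1.42 ± 0.43 on the log2 scale in C3aR-positive APP-KI microglia (3 of 3 libraries below WT, limma adjusted p = 0.04), and was not called in all sorted microglia, with a log2 difference of -1.16 ± 0.69 (limma adjusted p = 0.614). The call in C3aR-positive cells held under 8 of 15 alternatives, with adjusted p from 0.00881 to 0.156, and was lost with median ratio scaling, with no filter and with no mean-variance trend. It was also lost without WT C3aR-positive replicate 1 (log2 difference -0.999) or replicate 3 (-1.59), and without APP-KI C3aR-positive replicate 2 (-1.49) or replicate 3 (-1.19).

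Markers of border macrophages, which sit at the brain's vessels and meninges, were highest in the libraries high in Cd36. These were WT replicates 5 and 6 and C3aR-positive WT replicate 1. The match was loose, since C3aR-positive WT replicate 2 had a marker sum near that of replicate 1 and Cd36 at 12.2. The 6 markers (Mrc1, Lyve1, Cd163, Pf4, F13a1, Ms4a7) summed to 694, 631 and 466 in C3aR-positive WT and to 404, 184 and 182 in C3aR-positive APP-KI, with Mrc1 the most abundant in each of these 6 libraries and none at 0. In all sorted microglia the sum was 439, 1169 and 982 in WT and 288, 260 and 269 in APP-KI, where Pf4 was at 0 in replicate 4. It was 524, 380 and 586 in C3aR-KO and 210.0, 194, 350, 313 and 247 in APP-KI; C3aR-KO, with Pf4 at 0 in C3aR-KO replicate 2 and in replicate 1 of the double mutant. In the C3aR-positive comparison 4 of the 6 (Mrc1, Lyve1, Cd163, F13a1) had lower calls in APP-KI, in all sorted microglia 2 of 6 did (Mrc1, F13a1), and their part in the Cd36 result was not tested. Border macrophages carry CD11b and more CD45 than microglia, and how many passed the gate on CD45mid, CD11b-positive cells was not tested. The 6 monocyte and neutrophil markers (Ccr2, Ly6c2, Plac8, S100a8, S100a9, Ngp) summed to 705 in WT replicate 6, 411 in C3aR-positive WT replicate 1 and 66.9 in WT replicate 5. They summed to at most 277 in the other libraries, and their part in the Cd36 result was not tested either. In bulk samples such as these, fewer cells of a type and less RNA per cell cannot be told apart.

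Acsl1, which activates long-chain fatty acids, was the other member called lower in C3aR-positive APP-KI microglia. Its scaled values were 69.5, 63.5 and 69.1 in WT and 53.6, 44.4 and 49.5 in APP-KI, without overlap, a log2 difference of -0.45 ± 0.14 (3 of 3 libraries below WT, limma adjusted p = 0.0465). Unselected microglia held 71.3, 76.9 and 78.2 in WT and 42.9, 57.8 and 53.2 in APP-KI, also without overlap, and limma did not call the difference of -0.49 ± 0.27 (adjusted p = 0.545). Without the 4 libraries with few genes it was called, at -0.46, and without APP-KI replicate 5 as well it was -0.45 and was not. In the C3aR-positive cells the call was held by 6 of 15 alternatives (over all 15, adjusted p from 0.0403 to 0.204 and log2 differences from -0.51 to -0.31). It was lost with median ratio scaling, in DESeq2, with no mean-variance trend and with a replicate block by number. Leaving out any library other than APP-KI C3aR-positive replicate 1 also ended the call, at log2 differences between -0.49 and -0.38.

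The carnitine shuttle had no call by limma. Cpt1a, whose product is the regulated step of entry into mitochondria, ran from 58.1 to 66.6 in C3aR-positive WT and from 62.6 to 83.4 in C3aR-positive APP-KI, a log2 difference of 0.20 ± 0.15 (limma adjusted p = 0.338). Among unselected libraries it was 77.3, 72.8 and 80.1 in WT and 36.8, 63.3 and 72.9 in APP-KI, where 36.8 came from replicate 4, and the groups overlapped. Cpt2, the inner-membrane enzyme, was 24.4, 23.1 and 20.8 in C3aR-positive WT and 12.3, 18.9 and 6.37 in C3aR-positive APP-KI. These 2 groups did not overlap, yet the spread in APP-KI was wide and limma did not call the difference of -0.92 ± 0.36 (adjusted p = 0.0931, from 0.0398 to 0.208 over 15 alternatives). The 1 alternative that called it was the fit without APP-KI C3aR-positive replicate 2 (-1.26). Without the C3aR sort, Cpt2 was 1.03 in APP-KI replicate 4 against 17.99 and 20.3 in the other 2 APP-KI libraries, and the WT values were 17.9, 21.7 and 23.3. The log2 difference there was -1.09, and it was -0.11 without that library and -0.09 without the 4 libraries with few genes.

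Among the β-oxidation enzymes, Acadl and Hadha rose in C3aR-positive APP-KI microglia and Acadm did not change beyond its spread. Hadha, the α subunit of the trifunctional protein, had scaled values of 133, 109 and 126 in WT and 164, 185 and 224 in APP-KI. Acadl, a long-chain acyl-CoA dehydrogenase, had 43.6, 39.6 and 46.2 in WT and 59.6, 65.2 and 70.8 in APP-KI. Neither gene's groups overlapped, and the log2 differences were 0.63 ± 0.14 for Hadha (3 of 3 libraries, limma adjusted p = 0.012) and 0.58 ± 0.15 for Acadl (3 of 3, adjusted p = 0.0195). The Hadha call held under 13 of 15 alternatives (adjusted p from 0.000185 to 0.0612) and was lost with no mean-variance trend and without WT C3aR-positive replicate 2 (0.55). The Acadl call held under 12 of 15 (0.000925 to 0.0738) and was lost without WT C3aR-positive replicate 1 (0.59) or 2 (0.52) or APP-KI C3aR-positive replicate 2 (0.58). Acadm, the medium-chain enzyme, ran from 65.5 to 73.3 in WT and from 57.5 to 70.3 in APP-KI (log2 difference -0.14 ± 0.14, limma adjusted p = 0.472), and its sign turned with median ratio scaling (0.002).

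Among all sorted cells none of the 3 β-oxidation members was called. Hadha was 147, 151 and 146 in WT and 155, 148 and 191 in APP-KI, and Acadl was 44.6, 51.4 and 46.2 in WT and 54.8, 48.6 and 52.5 in APP-KI, with overlap in both. Their log2 differences were 0.27 ± 0.21 (limma adjusted p = 0.769) and 0.11 ± 0.21 (0.968). Acadm was 73.5, 77.0 and 70.5 in WT and 71.6, 59.8 and 61.8 in APP-KI, a difference of -0.18 ± 0.15 (0.8) that was called, at -0.26, without the 4 libraries with few genes and was not with APP-KI replicate 5 also left out (-0.28).

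**Figure D1:**
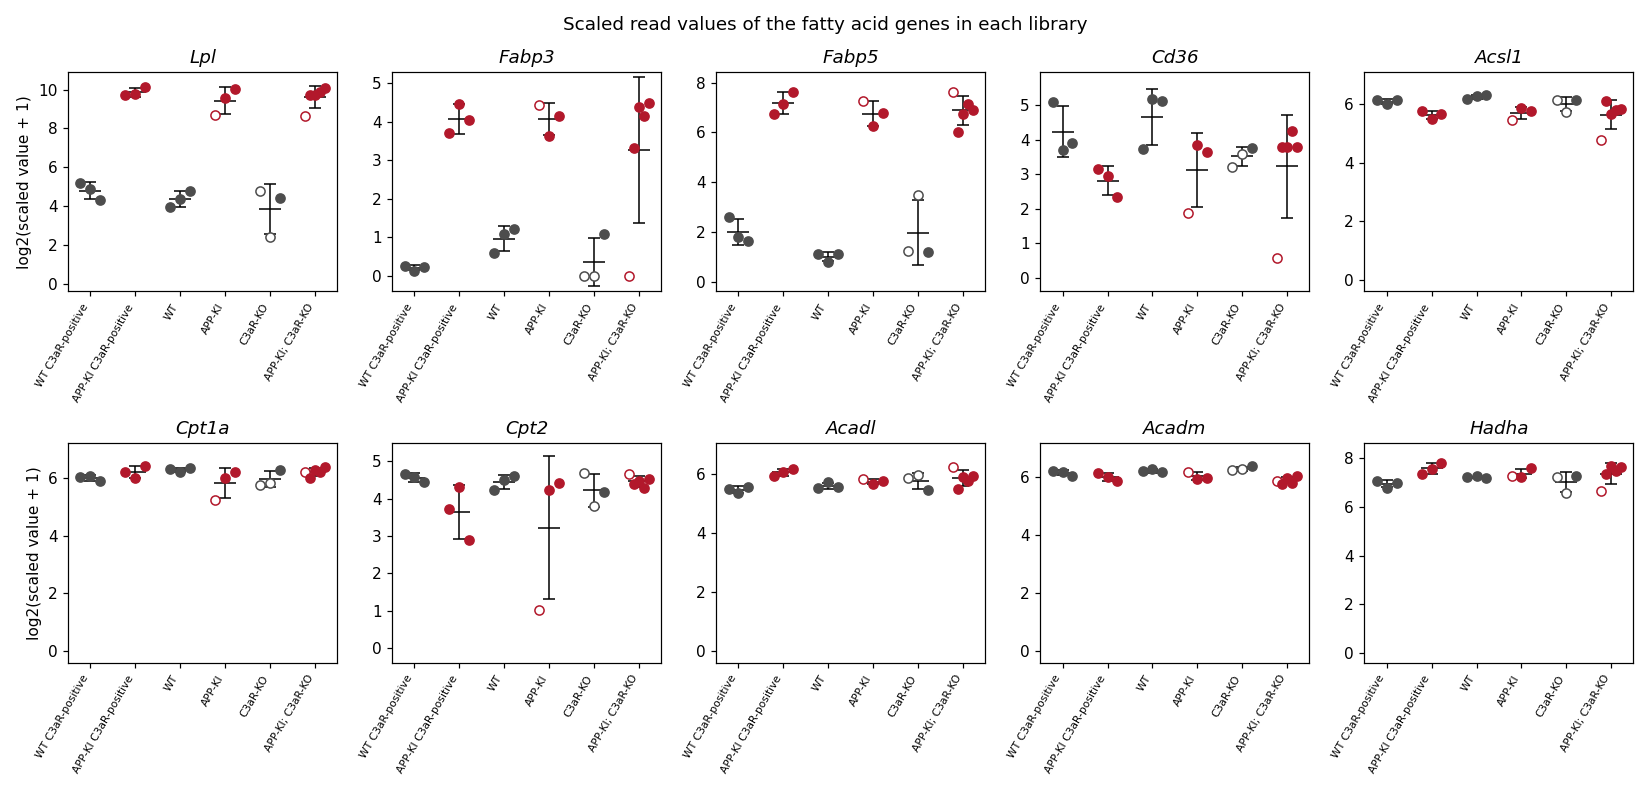
Each panel shows one gene, with log2(scaled value + 1) on the vertical axis and the 6 groups along the horizontal axis. Points are libraries (red with App mutations, grey without, open for the 4 libraries with few genes detected), and black bars are the group mean ± SD. Lpl and Fabp5 separate the groups with App mutations from the others completely.

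Counted over the 10 members, C3aR-positive microglia had 5 higher and 2 lower with the App mutations, where 13% of the 12312 genes tested were called higher and 9.71% lower. The 5 were Lpl, Fabp3, Fabp5, Acadl and Hadha and the 2 were Cd36 and Acsl1. Lpl, Fabp3 and Fabp5 also appear in a lipid list that the study drew from these C3aR-positive libraries, so neither their direction there nor the count is independent evidence. The members' median log2 difference was 0.39, against -0.17 over all genes tested. Median ratio scaling moved that overall median by 0.14, to -0.03 (0.14 also in DESeq2), and under it 1845 genes were higher and 605 lower, in place of 1602 and 1196 (75.31% and 57.26% of called genes higher), while the 5 higher members were still called and the 2 lower ones were not. The members called came to 4, 3 higher and 1 lower, without WT C3aR-positive replicate 2, and to 4 higher and 0 lower without WT C3aR-positive replicate 1. The genes called came to 1833 without WT C3aR-positive replicate 2 and to 1777 without replicate 3, in place of 2798. All sorted microglia had 3 members higher and 0 lower (limma), at backgrounds of 2.22% and 1.93% of 12407 genes. The members' median was -0.03, against -0.01 over all genes tested. The members were chosen with earlier results of these data known, so this count is not independent evidence either. Without the 4 libraries with few genes 3510 genes were called in place of 514, and 5 members, 3 higher and 2 lower (Acsl1, Acadm), while without APP-KI replicate 5 as well the counts were 1904 genes and 3 members. Single libraries also moved the number of genes called, to 218 without WT replicate 4, 281 without WT replicate 5, 317 without WT replicate 6, 272 without APP-KI replicate 6 and 837 without replicate 1 of the double mutant. The members called came to 2 without WT replicate 5, WT replicate 6 or APP-KI replicate 4, each time by loss of Fabp3.

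The libraries of unselected microglia fall into 2 series by their library numbers, 24 and 26, each with every genotype. Within series 24 the APP-KI minus WT difference in log2 was 5.19 for Lpl, 5.65 for Fabp5 and 3.43 for Fabp3, from 2 APP-KI libraries and 1 WT library. Within series 26 the same differences were 5.45, 5.82 and 3.00, from 1 APP-KI library and 2 WT libraries. Lpl and Fabp5 differed by at least 5.19 in each series, and no test was run within a series. For Cd36 the differences were -0.88 and -1.50, and for Cpt2 -1.60 and -0.14, the larger of the latter in the series that holds APP-KI replicate 4.

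Whether loss of C3ar1 altered these genes was asked in mice with and without App mutations. Comparing the double mutant with APP-KI, 0 of the 10 members were called by limma, at a background of 0.00806% of 12407 genes, which was a single gene, C3ar1. None of the members reached an unadjusted p under 0.05 in limma, and edgeR and DESeq2 on the recovered reads called 0 members. The log2 difference was -0.03 for Lpl, with a 95% interval from -0.90 to 0.83, and 0.19 for Fabp5, from -0.85 to 1.23. The intervals include differences in either direction, and the data do not show that the levels were equal. For Fabp3 the difference was -1.18 (-2.64 to 0.29), and it was 0.01 without the 4 libraries with few genes detected, 1 of which, in the double mutant, had no Fabp3 reads. The C3ar1 call itself was lost without APP-KI replicate 5 or 6, with no mean-variance trend and with only the groups compared, which left 0 genes called each time.

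The other 7 members lay between -0.20 (Cd36, -1.52 to 1.12) and 1.14 (Cpt2, -0.09 to 2.37) in the same comparison. The Cpt2 value came to 0.05 without the 4 libraries. Within series 24 and 26 the double mutant differed from APP-KI by 0.04 and -0.14 for Lpl, and by 0.07 and 0.16 for Fabp5. The series differed more for Fabp3 (-2.38 and 0.18), Cd36 (-0.68 and 0.30) and Cpt2 (1.90 and 0.01), and series 24 holds 2 of the libraries with few genes in this comparison.

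In mice without App mutations, C3aR-KO against WT gave 0 members (background 0.00806%, again C3ar1 alone). No member had an unadjusted p under 0.05 in limma, and edgeR and DESeq2 called 0. Without WT replicate 4, with no mean-variance trend or with only the groups compared no gene was called, and without C3aR-KO replicate 3 21 genes were, none of them a member. The log2 differences were -0.25 for Lpl (-1.22 to 0.72), -0.16 for Fabp3 (-1.80 to 1.49), 0.90 for Fabp5 (-0.27 to 2.07) and -0.76 for Cd36 (-2.24 to 0.73). C3aR-KO replicate 2 held the highest Fabp5 value, and the difference was 0.22 without it. Without the 4 libraries with few genes, which left 1 C3aR-KO library assumed to vary like the other groups, it was 0.06, and Lpl was at -0.10, Fabp3 at -0.14 and Cd36 at -1.08. The difference between the effects of C3ar1 loss in APP-KI and in WT was tested directly and called 0 members at a background of 0% of 12407 genes, with 0 members and 203 genes at an unadjusted p under 0.05, and edgeR and DESeq2 called 0 members.

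In microglia without C3ar1, APP-KI; C3aR-KO against C3aR-KO gave 3 members higher and 0 lower, at backgrounds of 3.96% and 2.97%. As the members were chosen with earlier results of these data known, the count is not independent evidence. Lpl was higher by 5.54 ± 0.40 on the log2 scale (SE, 5 of 5 libraries above all C3aR-KO libraries, limma adjusted p = 7.82e-07) and Fabp5 by 4.97 ± 0.49 (5 of 5, adjusted p = 1.51e-05). Fabp3 was higher by 2.54 ± 0.68 (4 of 5, limma adjusted p = 0.0373), a call that held under 10 of 26 alternatives (adjusted p from 2.49e-05 to 0.138). Without the 4 libraries with few genes, which left 1 C3aR-KO library assumed to vary like the other groups, the Fabp3 difference was 3.18. Leaving out any of 11 single libraries ended the Fabp3 call: C3aR-KO replicate 1 (2.59), 2 (2.59) or 3 (2.40), WT replicate 4 (2.48), 5 (2.52) or 6 (2.53), APP-KI replicate 6 (2.45), and replicate 2 (2.22), 3 (2.41), 4 (2.47) or 5 (2.39) of the double mutant. So did edgeR (5.58), a pseudocount of 0.1 (3.95), no filter, no mean-variance trend and a fit of only the groups compared (2.34). Without replicate 1 of the double mutant the difference was 3.43. Within series 24 and 26 the differences were 1.66 and 3.26 for Fabp3, 5.58 and 5.49 for Lpl, and 4.46 and 5.72 for Fabp5. The genes called came to 860, to 3936 without the 4 libraries and to 1397 without replicate 1 of the double mutant. Without the 4 libraries, and so against 1 C3aR-KO library, the differences were 0.36 for Acadl and -0.46 for Acadm, beside 0.12 and -0.41 with them. The 3 comparisons of App-mutant with non-mutant microglia therefore gave log2 differences of 5.05, 5.32 and 5.54 for Lpl and of 5.17, 5.68 and 4.97 for Fabp5, and the last pair of comparisons comes from 1 fit with a shared estimate of spread.

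In microglia without C3ar1 the activation, shuttle and oxidation members were not called by limma. Acsl1 ran from 52.2 to 69.98 in C3aR-KO and from 26.7 to 68.5 in the double mutant, Cpt1a from 53.4 to 76.6 in C3aR-KO and from 63.1 to 82.7 in the double mutant, and Cpt2 from 13.02 to 24.9 in C3aR-KO and from 18.4 to 24.4 in the double mutant, each with overlap. Acadl ran from 42.7 to 61.4 in C3aR-KO and from 43.8 to 74.2 in the double mutant and Hadha from 93.4 to 153 in C3aR-KO and from 98.1 to 204 in the double mutant, also with overlap. Acadm, from 74.2 to 81.8 in C3aR-KO and from 53.9 to 64.3 in the double mutant, was the member of these 6 whose groups did not overlap, and its log2 difference of -0.41 was not called by limma (adjusted p = 0.0806). Acadm was called under 5 of 26 alternatives (adjusted p from 0.0107 to 0.203). These were DESeq2 (-0.36), the fits without APP-KI replicate 4 (-0.418) or replicate 1 of the double mutant (-0.415), and those without the 4 libraries with few genes (-0.455) and without APP-KI replicate 5 as well (-0.453). The last-named pair of fits left 1 C3aR-KO library, assumed to vary like the other groups.

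**Figure D2:**
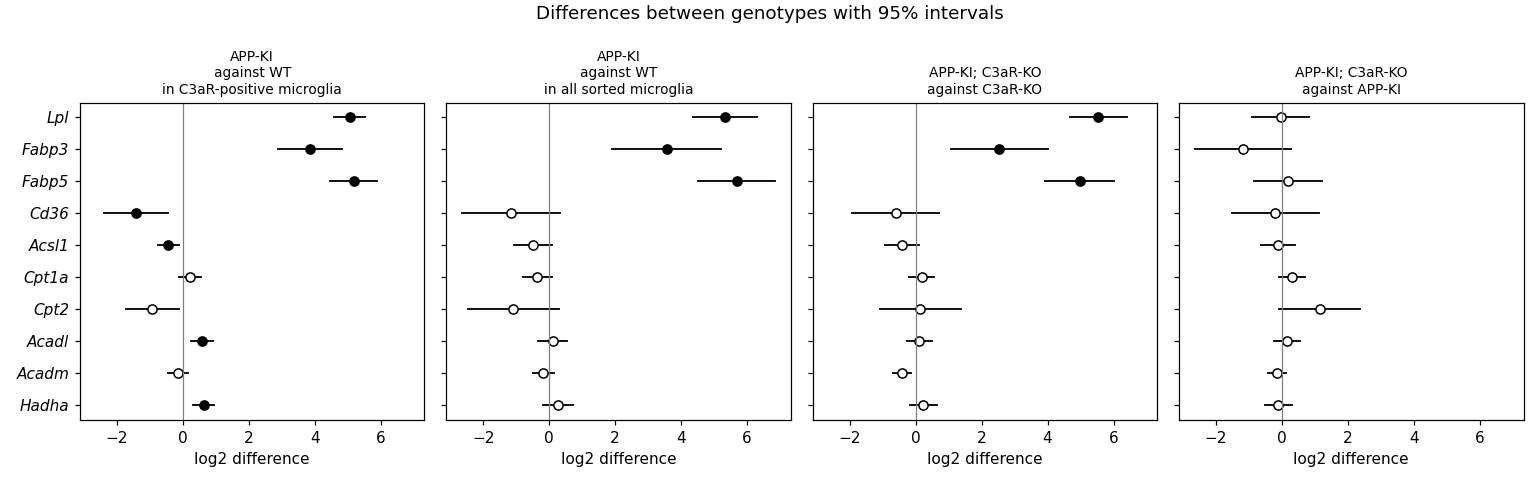
Log2 differences of the 10 genes, on the log2(scaled value + 1) scale, in 4 comparisons, with lines for 95% intervals from limma and filled points for an adjusted p under 0.05. Lpl, Fabp3 and Fabp5 lie at 2.54 or more in the first 3 panels, and in the last panel all 10 intervals include 0.

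The sort itself was compared within each genotype. C3aR-positive against all sorted microglia called 0 members in WT and 0 in APP-KI, at a background of 0% of 12589 genes in each, with 1 member and 552 genes in WT and 1 member and 657 genes in APP-KI at an unadjusted p under 0.05. edgeR called 0 members in both, and DESeq2 called 0 in APP-KI and 2 in WT, Fabp5 higher and Fabp3 lower in C3aR-positive cells, where it called 0.00794% of 12589 genes higher and 0.278% lower. Leaving out APP-KI replicate 4 brought 12 genes in WT, and leaving out APP-KI replicate 6 brought 3 genes in APP-KI, none of them a member. The APP-KI effect in C3aR-positive cells minus that in all sorted cells also called 0 members (background 0%), with 3 members and 1480 genes in limma at an unadjusted p under 0.05, 0 members by edgeR and 1, Fabp3, by DESeq2, which called 0.691% of genes higher and 0.262% lower. That difference was -0.01 for Lpl (95% interval -0.99 to 0.97), -0.59 for Fabp5 (-1.59 to 0.42) and 0.76 for Fabp3 (-0.34 to 1.86). It was 0.13 for Cd36 (-1.56 to 1.82), 0.11 for Acsl1 (-0.32 to 0.53), 0.45 for Acadl (0.05 to 0.85), 0.48 for Hadha (0.05 to 0.92) and 0.67 for Cpt1a (0.03 to 1.30). The last 3 intervals exclude 0 before adjustment, and none of the 3 passed the adjustment over all genes. The C3aR-positive libraries form a library series of their own, 22, so the sort, the reporter allele and the series cannot be told apart. The calls for Cd36, Acsl1, Acadl and Hadha in C3aR-positive cells alone are therefore not shown, after adjustment, to differ from all sorted cells.

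To set levels of different genes side by side, scaled values were divided by merged exon length in kb. This length joins the exons of every annotated transcript, from 823 bases for Fabp3 to 10483 for Acsl1. It can be longer than the transcript expressed, which was not determined, so the order holds for this divisor only. In unselected WT microglia the median level per kb was highest for Acadl (23.0), followed by Acadm (18.8), Hadha (16.8), Cpt1a (10.1), Cd36 (9.35), Cpt2 (9.07) and Acsl1 (7.33), and Lpl (1.86), Fabp3 (1.38) and Fabp5 (0.319) came last. By this divisor the oxidation enzymes led in WT. Among neighbours in this order only Cpt1a with Cd36, Cd36 with Cpt2, and Lpl with Fabp3 overlapped over the 3 libraries. In unselected APP-KI microglia Lpl was at 73.0 per kb, Fabp5 at 30.2, Acadl at 26.2 and Fabp3 at 20.4, above Hadha (17.8), Acadm (15.8), Cpt1a (8.29), Cpt2 (7.52), Acsl1 (5.07) and Cd36 (3.19). Each of the upper 6 overlapped its neighbour over the 3 libraries, but Lpl (38.9 to 99.5) lay above every library of Acadl, Fabp3, Hadha and Acadm. Lpl overlapped Fabp5 only through APP-KI replicate 4, at 38.9 against 42.3, and the other 2 libraries had 73.0 and 99.5 for Lpl against 20.9 and 30.2 for Fabp5. The separated neighbours further down were Acadm from Cpt1a and Acsl1 from Cd36.

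Beyond the members, 79 genes of lipid uptake, binding, activation, the carnitine shuttle, mitochondrial and peroxisomal β-oxidation and their regulators had been listed, members included. In C3aR-positive microglia 65 passed the filter, 10 were higher in APP-KI, 3 were lower and 52 were not called, where 13% of all genes were higher and 9.71% lower, and their median log2 difference of -0.15 was near that of all genes, -0.17. The list had 12 higher and 1 lower with median ratio scaling (1845 and 605 of 12295 genes), and 15 and 3 in DESeq2 (18.1% and 7.72% of genes). It had 8 and 1 without WT C3aR-positive replicate 1 (1253 and 647 of 12196 genes). Without APP-KI C3aR-positive replicate 1 it had 9 and 5 (1494 and 1034 of 12290 genes). Of the 79 genes 66 passed in all sorted microglia, 5 were higher, 1 was lower and 60 were not called, at 2.22% and 1.93% of all genes (median 0.05 against -0.01). Without WT replicate 6 the list had 3 higher and 0 lower, where 193 and 124 of 12421 genes were called. Without replicate 1 of the double mutant it had 6 higher and 1 lower, where 415 and 422 of 12433 genes were called. By step, calls in C3aR-positive cells were 2 higher and 1 lower of 6 for uptake and lipases, 2 higher of 6 for binding, 1 higher and 1 lower of 7 for activation, 0 of 5 for the carnitine shuttle, 3 higher and 1 lower of 19 for mitochondrial β-oxidation, 1 higher of 12 for peroxisomal β-oxidation and 1 higher of 10 for the regulators.

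Apart from the members, enzymes of β-oxidation were called in both directions in C3aR-positive cells. Echs1, the enoyl-CoA hydratase of short acyl chains, had 42.6, 39.7 and 42.0 in WT and 90.5, 86.6 and 95.8 in APP-KI. Acads, the short-chain acyl-CoA dehydrogenase, had 91.7, 97.1 and 102 in WT and 65.6, 63.6 and 64.5 in APP-KI. Neither gene's groups overlapped, and the log2 differences were 1.11 ± 0.13 and -0.58 ± 0.12 (3 of 3 libraries each), with limma adjusted p of 0.000412 and 0.00805. Without selection on C3aR the same genes gave 0.98 ± 0.17 and -0.89 ± 0.23 (limma adjusted p = 0.00347 and 0.0475), each in 3 of 3 libraries. Acads was called there under 9 of 28 alternatives (adjusted p from 0.00329 to 0.433), and leaving out any single WT or APP-KI library ended its call (log2 differences from -1.11 to -0.66), as did leaving out C3aR-KO replicate 3 (-0.89) or replicates 2 (-0.88), 3 (-0.89), 4 (-0.89) or 5 (-0.89) of the double mutant. It was also lost with edgeR, both other scalings, another pseudocount, no filter, no trend and only the groups compared, and Echs1 was lost there with only the groups compared (0.97, and 0.87 without the series term). Among mitochondrial enzymes in C3aR-positive cells, Echs1, Hadha and Acadl were thus higher and Acads lower, also with median ratio scaling.

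The remaining calls in C3aR-positive cells were Abcd2, a peroxisomal transporter of very long acyl chains (log2 difference 1.08), Slc27a1, a fatty acid transport protein (0.75), Ppard, a nuclear receptor activated by fatty acids (0.56), and Acsl5, an acyl-CoA synthetase (0.53), each with 3 of 3 libraries above WT. The Slc27a1 call was lost with no filter, with no trend, without WT C3aR-positive replicate 1 (0.57) or 3 (0.77) and without APP-KI C3aR-positive replicate 1 (0.72), 2 (0.83) or 3 (0.69). A replicate block by number also ended it, at a log2 difference of 0.75 (limma adjusted p = 0.0612). Acacb, whose product makes the malonyl-CoA that restrains CPT1, was called in all sorted microglia alone, at 0.814, 2.22 and 1.34 in WT and 10.3, 12.6 and 9.86 in APP-KI (2.27 ± 0.53, 3 of 3 libraries, limma adjusted p = 0.0233, from 0.00072 to 0.228 over 28 alternatives). The Acacb call was lost with edgeR (2.89), with no filter, without the 4 libraries and APP-KI replicate 5 together (2.13), without WT replicate 4 (1.91) or 6 (2.27), and without APP-KI replicate 5 (2.19) or 6 (2.31). Acacb differed by -0.56 in C3aR-positive cells and by 0.10 in the double mutant against C3aR-KO, with overlapping groups and no call in either. In the double mutant against C3aR-KO, Echs1 and Abcd2 were higher by 1.03 and 0.94, each with 5 of 5 libraries above every C3aR-KO library.

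Marker lists moved in the C3aR-positive comparison too, and their part in the results was not tested. Of 7 microglial markers, 4 were lower in APP-KI (P2ry12, Tmem119, Cx3cr1, Sall1), and the summed level was 20760.0, 22129 and 20638 in WT and 13879, 13145 and 18357 in APP-KI, with Csf1r the most abundant in each and none at 0. Endothelial markers summed to 89.2, 46.1 and 48.9 in WT and 170.1, 189.7 and 325.6 in APP-KI, with Flt1 higher and Pecam1 lower. Flt1 alone made 155, 182 and 314 of the APP-KI sums, Pecam1 was the most abundant in WT, and the list's median log2 difference was -1.03 against -0.17 over all genes. Genes raised by warm dissociation, led by Jun or Zfp36, summed to 4871, 3744 and 3414 in WT and 3302, 2923 and 3938 in APP-KI. Calls by limma came to 1 higher and 1 lower of 6 astrocyte and of 5 endothelial markers, 1 higher of 5 oligodendrocyte markers, 1 higher and 3 lower of 10 genes of warm dissociation, 0 of 6 monocyte and neutrophil markers and 0 of 1 neuronal marker, and no T or NK cell marker passed the filter. Among all sorted cells Flt1 was higher and Sall1 lower, and apart from the border macrophage list no other listed marker was called. In the double mutant against C3aR-KO limma called Mrc1, F13a1 and Ccr2 lower and Mbp and Flt1 higher, and no other listed marker. The warm dissociation genes summed to 6876 in APP-KI replicate 4 and 5971 in replicate 1 of the double mutant, 2 of the libraries with few genes, and to at most 4871 in the other 18.

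Over all 20 libraries, the genes with log2 values most like those of Lpl were Fam20c (Pearson's r = 0.990), St14 (0.985) and Cst7 (0.983) among 10133 genes. For Fabp5 they were Myo1e (0.990), Cd274 (0.989) and Acaca (0.988), and for Fabp3 Hpse (0.971), Msmo1 (0.966) and Itga5 (0.963). The libraries fall into 2 clusters by App genotype for these genes, and r within each was not computed. Cd36 was most like Gpr34 (0.920), Tmem86a (0.917) and Atg101 (0.915), and Acsl1 like Gtpbp1 (0.954), Slc46a1 (0.951) and Adgrg1 (0.945). Hadha was closest to Hspa9 (0.961), Cpt2 to Zdhhc24 (0.956), Acadl to Slf2 (0.909), Acadm to Ano6 (0.878) and Cpt1a to Arel1 (0.867). Without the 5 libraries set apart by the number of genes detected, r was 0.790 for Cpt2 with Zdhhc24, 0.759 for Cpt1a with Arel1, and 0.886, 0.804 and 0.790 for Cd36 with the 3 genes above. Among their 3 closest genes over 20 libraries, Cpt2 was then most like Thoc6 (0.905) and Cpt1a most like Pdcd6ip (0.792).

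Promoter sequences from RefSeq (GRCm38.p6, 250 bases before to 50 after the start) were matched for 8 of the 10 members by symbol. Lpl and Fabp5 had none. The windows were searched on both strands for AGGTCA, the half-site of nuclear receptors such as the PPARs, for CACGTG, an E-box, for GAGGAA, a core bound by PU.1, and for TGANTCA, the AP-1 site. No motif is contained in another, and of 32851 promoters 16.3%, 7.15%, 28.3% and 7.81% hold a match. Cd36, Cpt1a and Acadm each held 1 AGGTCA match, starting at -228, -94 and -249, and no other match was found in any member. The 2 windows below belong to Fabp3, a binding protein gene that was higher in APP-KI, and Cd36, the receptor gene that was lower in its C3aR-positive cells. The AGGTCA match, on the reverse strand, is in capitals. The Cd36 window lies inside the annotated span of the gene and not at its upstream end, and Acsl1 had 2 windows.
Fabp3, chr4:130308488-130308787, plus strand: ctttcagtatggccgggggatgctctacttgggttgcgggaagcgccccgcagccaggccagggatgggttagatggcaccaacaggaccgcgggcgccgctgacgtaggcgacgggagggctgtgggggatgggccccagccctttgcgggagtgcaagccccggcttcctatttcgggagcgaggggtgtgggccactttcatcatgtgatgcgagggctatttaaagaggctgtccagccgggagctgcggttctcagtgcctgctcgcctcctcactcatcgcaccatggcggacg
Cd36, chr5:17835847-17836146, minus strand: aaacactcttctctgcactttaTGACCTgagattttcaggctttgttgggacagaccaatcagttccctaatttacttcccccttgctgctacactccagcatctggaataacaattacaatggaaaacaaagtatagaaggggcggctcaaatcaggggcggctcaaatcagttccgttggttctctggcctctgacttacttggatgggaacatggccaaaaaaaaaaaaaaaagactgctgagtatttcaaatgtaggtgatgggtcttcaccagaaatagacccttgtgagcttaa
A match describes letters in the window, and its absence from Fabp3 says only that these letters are not there.

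The members lie in GRCm38 (GENCODE M21) at 8:68880491-68907448 for Lpl, 4:130308595-130315463 for Fabp3, 3:10012548-10016607 for Fabp5 and 5:17781690-17888801 for Cd36, and all 10 are protein-coding. Fabp3 overlaps Gm10570 and Zcchc17, Acsl1 overlaps Gm45244 and Hadha overlaps Garem2 on the opposite strand, and Acadl overlaps Gm15793 and Gm27934. These are overlaps of whole gene spans, and whether exons are shared was not examined. The strand setting of the counting is not given in the sources used here, so how reads in any shared stretch were assigned is not known.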

How the data were processed

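RNA of sorted microglia was measured in 20 libraries, grouped by the genotype, sort and replicate in the sample labels. The deposited values are a signal made by the authors: the reads of each gene, from alignment to mm10 and featureCounts per the submitters' processing notes, divided by the library's 75th percentile, although the file names call them FPKM. Whole reads were recovered for 100% of values within 0.1, and totals ran from 13939559 to 76608464 reads. Library preparation used molecular identifiers, and whether they entered the counts is not stated.

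Values were multiplied by 35.2, and genes with a mean of at least 1 entered limma 3.58.1 (R 4.3.3), fitted to log2(scaled value + 1) with its trend option. P-values were adjusted by Benjamini and Hochberg's method across all genes tested, with a call under 0.05. One fit held the 6 C3aR-positive libraries, another the 14 others together with the library series as a term, and a further fit the 12 WT and APP-KI libraries of both sorts without it. All comparisons used limma's moderated test, two-sided. edgeR 4.0.16 and DESeq2 1.42.0 on the recovered reads, another pseudocount, filters, scalings, thresholds, fits and single left-out libraries served as alternatives. Leaving out the 4 libraries with few genes, and APP-KI replicate 5, was added after seeing the data, as was a fit of unselected WT and APP-KI alone without the series term. Python 3.11.15, pandas 2.3.3, numpy 2.4.6 and matplotlib 3.10.9 did the rest, and the fits were tested on simulated data.

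The members, 7 pathway lists (uptake and lipases, binding, activation, carnitine shuttle, mitochondrial and peroxisomal β-oxidation, regulators) and 9 marker lists (border macrophages, microglia, T and NK cells, endothelium, monocytes with neutrophils, astrocytes, neurons, oligodendrocytes, and warm dissociation) were chosen with earlier results of these data known, and 2 listed genes were left out. Genes named were the members, C3ar1, listed pathway genes past the adjusted p in either comparison of APP-KI with WT, and, for each member with a mean of at least 5, the genes with the highest Pearson's r over 20 libraries.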

Additional observations from a re-analysis of the deposited data

Results flagged for a closer look

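Replicate 1 of APP-KI; C3aR-KO lay far below the other 4 libraries of its group in 3 genes, by a gap that took a larger share of the group's range than Dixon's limit for 5 samples. Lpl was 395.831 there (gap over range 0.740), Fabp3 0.0 (0.738) and Cd36 0.498 (0.874). The 10 members and C3ar1, 11 genes, were examined in the 1 group of 5, and chance alone marks about 1 in 20. The same library had reads above 0 in 12387 of 21326 entries, the fewest of the 20, and whether that bears on the 3 values was not tested.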

How the results depend on the processing

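Of 1604 values of named genes under alternatives, 1440 kept direction and side of the threshold, 87 lost their call, 12 gained it and 65 turned direction. The cause was not tested. Lpl and Fabp5 were called under every alternative run for APP-KI against WT in C3aR-positive cells (15 alternatives, log2 differences 4.81 to 5.25 and 4.94 to 5.68), in all sorted cells (28, 5.07 to 5.56 and 5.48 to 6.70) and in the double mutant against C3aR-KO (26, 4.96 to 6.11 and 4.51 to 5.67).

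At an adjusted p under 0.0005 the genes called were 267 in C3aR-positive cells (3 members), 75 in all sorted cells, 139 in the double mutant against C3aR-KO, and 0 in both comparisons of C3ar1 loss. With no trend they were 0 in both comparisons of C3ar1 loss and 1 for the sort in APP-KI, and 4 members were called in C3aR-positive cells. DESeq2 called 9 genes in C3aR-KO against WT, 1 for the difference between the effects of C3ar1 loss, 36 for the sort in WT (2 members), 28 for the sort in APP-KI and 120 (1 member) for the difference between the APP-KI effects. With no filter 2 genes were called in the double mutant against APP-KI. With only the groups compared, 443 were called in the double mutant against C3aR-KO and 0 in both comparisons of C3ar1 loss. A fit of all 20 libraries called 1 gene for the sort in WT.

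Without the 4 libraries with few genes, which leaves single libraries assumed to vary like the other groups, 3510 genes (5 members) were called in all sorted cells, 2 in C3aR-KO against WT, 3936 (5 members) in the double mutant against C3aR-KO and 12 for the sort in WT. Also without APP-KI replicate 5 they were 1904 in all sorted cells, 4158 (5 members) in the double mutant against C3aR-KO and 12 for the sort in WT.

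Leaving out single libraries gave 1777 to 2528 genes and 4 to 7 members in C3aR-positive cells, 218 to 837 genes in all sorted cells, 614 to 1397 in the double mutant against C3aR-KO, 0 to 21 in C3aR-KO against WT, 0 to 1 in the double mutant against APP-KI, 0 to 12 and 0 to 3 for the sort in WT and APP-KI, and 0 to 2 for the difference between the APP-KI effects.

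Directions turned as follows, all in values not called with the chosen settings. With median ratio scaling Acadm in C3aR-positive cells was at 0.00234 and Lpl, for the difference between APP-KI effects, at 0.0913. Quantile normalization put Fabp3 in C3aR-KO against WT at 0.30 and Cd36 in the double mutant against APP-KI at 0.13, and without the series term Cd36 was at 0.12 and Lpl at 0.17 there. Without the 4 libraries, and then also without APP-KI replicate 5, the double mutant minus APP-KI was 0.00516 and 0.13 for Fabp3, 0.036 and 0.45 for Cd36, and 0.0715 and 0.0678 for Acsl1, with Hadha at 0.0807 in the former. In the double mutant against C3aR-KO they gave 0.26 and 0.33 for Cd36 and -0.0255 and -0.0293 for Cpt1a, and C3ar1 in all sorted APP-KI against WT was at 0.17 and 0.29. The difference between the APP-KI effects was -0.487 and -0.387 for Cd36 and -0.808 and -0.892 for Cpt2 without these libraries, and -0.0132 for Acsl1 without the 4. There edgeR put Cd36 at -0.097 and Cpt2 at -0.183, and DESeq2 put Cpt2 at -0.0952.

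With single libraries left out, the double mutant minus APP-KI ran from -0.27 to 0.16 for Lpl, -0.0925 to 0.55 for Fabp5, -0.66 to 0.51 for Cd36, -0.32 to 0.16 for Acsl1 and -0.19 to 0.0688 for Hadha. Against C3aR-KO it ran from -1.06 to 0.10 for Cd36, -0.0816 to 0.43 for Cpt2 and -0.0735 to 0.27 for Acadl. C3aR-KO minus WT ran from -0.80 to 0.32 for Lpl and -0.38 to 0.26 for Fabp3, C3ar1 in APP-KI minus WT from -0.41 to 0.17, and the difference between the APP-KI effects from -0.39 to 0.29 for Lpl, -0.49 to 0.60 for Cd36, -0.0132 to 0.198 for Acsl1, -0.81 to 0.89 for Cpt2 and -0.0222 to 0.131 for Acadm.

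A replicate block by number called 2240 genes and 6 members in C3aR-positive cells and 673 genes and 4 members in all sorted cells. The latter fit held only the 6 WT and APP-KI libraries and no series term, and the same 6 libraries without block or series term gave 522 genes and 3 members, an alternative added after seeing the data. Acsl1 was the member lost in the former, and Cd36, at a log2 difference of -1.56, was the member gained in the latter. Same-numbered libraries did not deviate together in every pair (Pearson's r across genes from -0.01 to 0.04 in C3aR-positive cells and from 0.09 to 0.25 in all sorted cells), and not every library had its highest r with its own number.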
